A study of Homo sapiens with 131 samples.

Results

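The human cell line HAP1 has a near-haploid genome, in which most loci hold 1 copy before and 2 copies after replication. Single HAP1 cells sorted in mid-S-phase were processed by scRR-seq (protocol scRR1), in which beads hold the DNA of a lysed cell while its RNA stays in the supernatant, and a DNA library and a total-RNA library are made from the same cell. The cells described here fall into a first set, with cell numbers up to 65, and a second set, with cell numbers above 65. The tables hold 29 cells of the first set and 27 cells of the second set, 56 in all, of the 31 and 32 cells with such numbers in the labels. Another 7 labelled mid-S cells and 5 DNA libraries of G1 cells were not analysed here. Both sets carry the same label (line, phase, protocol), no genotype or treatment sets them apart, and the study describes all HAP1 cells as coming from 1 biological experiment. The labels give no plate, date or batch. RNA was taken from a mainly cytoplasmic supernatant, so part of the nuclear RNA is not represented.

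The sets were chosen by RNA values of these libraries: the cell number at which they part was found from the mitochondrial share of RNA and the unspliced totals. RNA differences between the sets are therefore described without a test, and tests were run only on the DNA libraries. RNA levels are TPM, read counts scaled by gene length to the same total in each cell: a larger share of some genes leaves a smaller share for all others. At the parting, cells 61, 63 and 64 of the first set had 12.04%, 12.6% and 8.28% of TPM from the mitochondrial genome. Cells 66, 68 and 69 of the second set had 3.82%, 4.42% and 3.23%. The unspliced totals of the 3 cells of the first set were 881535, 844412 and 713230 counts, and those of the 3 cells of the second set were 517288, 520942 and 700310 counts. Over all cells the shares overlapped by a single cell pair: the lowest share in the first set was 4.98% (cell 5) and the highest in the second set was 5.55% (cell 77).

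**Figure D1:**
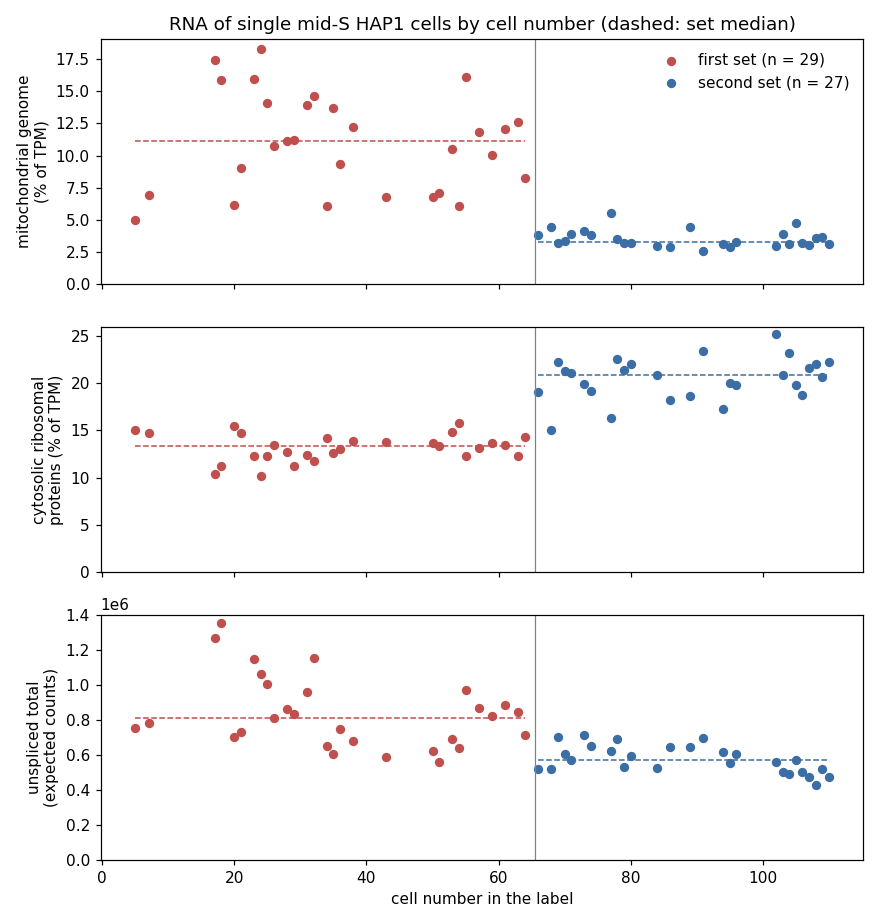
Share of TPM from the mitochondrial genome, share of TPM from cytosolic ribosomal protein genes and unspliced total (vertical axes) against the cell number (horizontal axis), 1 point per cell, with the median of each set as a dashed line and the parting as a vertical line. The median mitochondrial share was 11.1% in the first set and 3.28% in the second, and the median ribosomal protein share 13.3% in the first set and 20.8% in the second.

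The TPM tables keep no depth. The number of detected genes was somewhat lower in the first set, with overlapping ranges. In 29.8% of pairs of a first-set and a second-set cell, the first-set cell had more. Between 12045 and 14476 genes (median 13029) reached 1 TPM in cells of the first set, against 12638 to 15028 (median 13711) in cells of the second set. The 100 most abundant genes of a cell held a median of 29.04% of TPM in the first set and 30.6% in the second. None of 12 blood cell markers, which would mark the leukaemic origin of the line, passed the filter on low values, and their summed level was 0 to 59 TPM in the first set and 0 to 5.01 TPM in the second. Of 10 fibroblast markers 3 passed (COL1A1, DCN and PDGFRA), with sums of 0 to 85.6 TPM in the first set and 0 to 77.5 TPM in the second. BCR, ABL1 and VIM, which the line should express, and 4 other abundant genes passed.

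Much of what follows concerns transcripts of the mitochondrial genome and of the genes for cytosolic ribosomes. The mitochondrial genome encodes 13 proteins of the respiratory chain and the ATP synthase, 2 rRNAs and a set of tRNAs, and is transcribed inside mitochondria from both strands into long precursors that are cut at the tRNAs. Cytosolic ribosomes are built from proteins of nuclear genes, whose mRNAs are among the most abundant of a dividing cell and share a run of pyrimidines at their start, the 5' terminal oligopyrimidine (TOP) tract, which links their translation to growth signalling.

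Across the transcriptome few genes differed between the sets by a large factor. A gene was counted as higher or lower when its mean log2(TPM + 1) differed by at least 1 between the sets and at least 90% of the 783 pairs of a first-set and a second-set cell went in that direction. Of 17132 expressed genes, 26 were counted as higher in the first set (0.152% of them) and 7 as lower (0.0409%). The median difference over all expressed genes was -0.01. Without the minimum difference, a rule added after the values had been seen, 29 genes (0.169%) were higher and 96 (0.56%) were lower in at least 90% of pairs. The sets did not overlap at all for 3 genes: MT-CO1 and MT-CO3, higher in the first set (0.0117%), and RPS3A, lower in the first set (0.00584%).

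Of the 26 genes counted as higher, 15 lie on the mitochondrial genome: 12 of its 13 mRNAs, both rRNAs and 1 tRNA. MT-CO1, which encodes the catalytic subunit of cytochrome c oxidase, had 5832 TPM in the lowest, 17827 in the median and 29220 in the highest cell of the first set, against 2100, 3707 and 5779 TPM in the second set. Its mean difference was 2.06 ± 0.15 on the log2 scale (SE, 29 and 27 cells). MT-CO3, another core subunit of that complex, had 1602, 2998 and 5724 TPM in the first set and 419, 954 and 1475 TPM in the second, a difference of 1.77 ± 0.13. For these subunits the lowest cell of the first set lay above the highest cell of the second set.

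MT-RNR2, the large mitochondrial rRNA, had 7413, 21121 and 41166 TPM in the first set (lowest, median, highest) and 3672, 6255 and 12598 TPM in the second. The difference was 1.601 ± 0.17, and 96.2% of pairs were higher in the first set. MT-ND4, a subunit of complex I, had 3065, 8501 and 14420 TPM in the first set and 1886, 2470 and 4470 TPM in the second, a difference of 1.59 ± 0.12 with 98.9% of pairs higher. The ranges of these 2 transcripts overlapped, with the low cells of the first set inside the range of the second.

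The mitochondrial transcripts did not all differ by the same factor. Over the 13 mRNAs the difference ran from 0.99 ± 0.15 for MT-ND2, the one mRNA not counted (89.1% of pairs), to 2.06 for MT-CO1. The complex I subunits MT-ND3 (1.06 ± 0.13) and MT-ND1 (1.24 ± 0.13) were at the low end, and MT-CYB of complex III (1.82 ± 0.17), MT-ATP6 (1.79 ± 0.14) and MT-ATP8 (1.70 ± 0.19) of the ATP synthase at the high end. MT-ND6, the one mRNA made from the other strand, lay between them (1.39 ± 0.19), as did MT-RNR1, the small rRNA (1.35 ± 0.10). Neighbours in this order lay closer to each other than the sum of their SEs. Whether counting was by strand is not stated in the sources read here. The MT-ND6 value may therefore include reads from the opposite strand.

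The remaining mitochondrial gene counted was MT-TS1, the gene of a serine tRNA, with 2695, 6091 and 17204 TPM in the first set and 61, 1711 and 3510 TPM in the second (difference 2.24 ± 0.28). It lies on the strand opposite to MT-CO1 at positions 7446 to 7514 and starts at the base after the last base of MT-CO1, 7445. No source read here states if counting was by strand, so tRNA reads and reads of extended MT-CO1 transcripts cannot be told apart. The nuclear genes counted as higher included 3 copies of mitochondrial genes. MTCO1P12 and MTATP6P1, on chromosome 1, were 98.6% and 98.5% identical to MT-CO1 and MT-ATP6 in the reference genome, and MTRNR2L3, on chromosome 20, was 81.2% identical to MT-RNR2. MTCO1P12 had medians of 73.1 TPM in the first set and 21.4 TPM in the second (1.91 ± 0.25), and MTRNR2L3 37.8 TPM in the first set and 14.5 TPM in the second (1.46 ± 0.21). MTATP6P1 had a median of 1187 TPM in the first set and 331 TPM in the second, a difference of 1.72 ± 0.13. The levels of MTCO1P12 and MTATP6P1 are uncertain, since reads are hard to divide between sequences this alike. MTRNR2L3 is less alike to its parent, and how reads were placed at any of these copies was not tested.

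**Figure D2:**
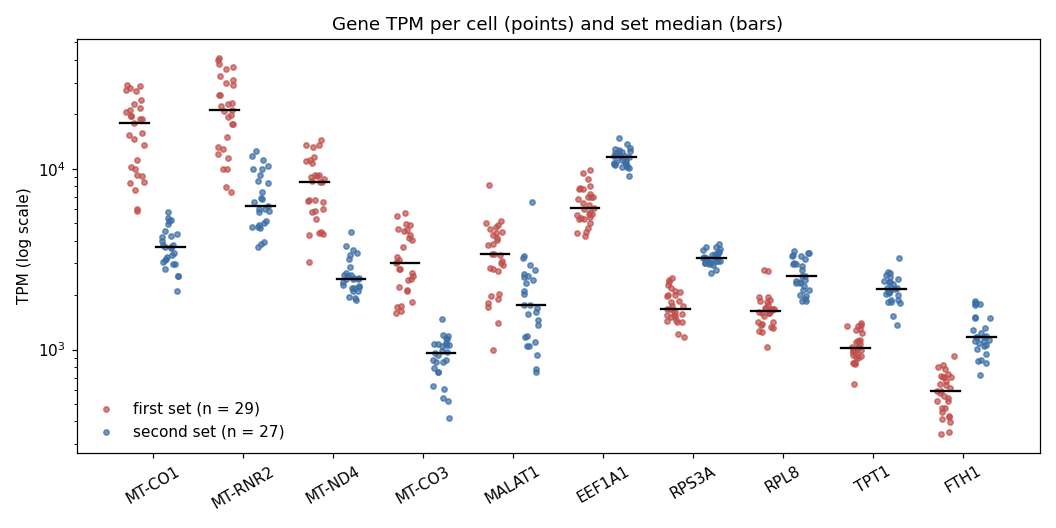
TPM per cell (vertical axis, log scale) of 10 genes (horizontal axis), with the first set left of the second, 1 point per cell and the median of each set as a bar. MT-CO1 and MT-CO3 of the first set lay above all values of the second set, and RPS3A of the first set lay below them (highest 2488 TPM, against a lowest of 2664 TPM).

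The 8 other nuclear genes counted as higher shared no gene list, and SNHG14 and ZNF66 were each on one. SAMD12, on chromosome 8, had a median of 56.8 TPM in the first set and 22.2 TPM in the second (difference 1.42 ± 0.22). MAN2C1, an alpha-mannosidase of the cytosol, had 155 TPM in the first set and 68.5 TPM in the second (1.35). SNHG14, the long host transcript of imprinted snoRNA clusters on chromosome 15, had 17.6 TPM in the first set and 7.76 TPM in the second (1.18 ± 0.21). SNHG14 was at 0 in 1 cell of the second set. ZNF66, a zinc finger gene of the KRAB type, had 8.46 TPM in the first set and 3.51 TPM in the second (1.17 ± 0.16). Another 4 non-coding or unclassified genes completed the list, with differences of 1.001 for SLC26A4-AS1, 1.05 for RP11-370I10.12, 1.07 for RP1-199L16.2 and 1.15 for RP11-382B18.1. Their ranges overlapped between the sets.

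Ribosomal protein mRNAs differed in the other direction. All 79 cytosolic ribosomal protein genes were expressed, and all 79 had a lower mean in the first set, with a median difference of -0.65 against -0.01 over all expressed genes. None reached a difference of -1, so none was counted by the main rule, but 62 of the 79 were lower in at least 90% of pairs, where 0.56% of all expressed genes were. Their summed share of TPM was 10.1%, 13.3% and 15.7% in the first set (lowest, median, highest) and 15.01%, 20.8% and 25.2% in the second. As a share of the TPM of nuclear genes, in which the mitochondrial transcripts have no part, the median was 14.7% in the first set and 21.4% in the second. With the mitochondrial genes left out and the rest rescaled, the median difference of the 79 genes was -0.53.

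RPS3A, a small-subunit protein, had 1167, 1666 and 2488 TPM in the first set and 2664, 3189 and 3847 TPM in the second, and its mean difference was -0.88 ± 0.06. RPS14 (-0.93 ± 0.08), RPL7 (-0.92 ± 0.09) and RPL32 (-0.92 ± 0.07) had the lowest differences of the family. RPL8, a large-subunit protein, had 1039, 1635 and 2739 TPM in the first set and 1845, 2539 and 3520 TPM in the second (-0.67 ± 0.08), with overlapping ranges and 5.11% of pairs higher in the first set.

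Factors that act with the ribosome differed likewise. The list of elongation and related factors also holds initiation factors, such as EIF3E and EIF4B. All 12 genes of this list had a lower mean in the first set, with a median difference of -0.71. TPT1, an abundant mRNA that carries a TOP tract, was the one of them counted as lower: it had 642, 1019 and 1408 TPM in the first set and 1372, 2166 and 3224 TPM in the second (-1.05 ± 0.07). EEF1A1, which brings aminoacyl-tRNA to the ribosome, had 4250, 6081 and 9812 TPM in the first set and 9177, 11563 and 14865 TPM in the second (-0.88 ± 0.07). The ranges overlapped by a few cells, with 0.255% of pairs higher in the first set.

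The 6 remaining genes counted as lower have no common role. FTH1, the heavy chain of ferritin, had 341, 589.5 and 922 TPM in the first set and 725, 1169 and 1862 TPM in the second (-1.09 ± 0.10). MYL12B, a myosin regulatory light chain, had medians of 199 TPM in the first set and 367 TPM in the second (-1.13 ± 0.17), and DSTN, which severs actin filaments, 80.7 TPM in the first set and 149 TPM in the second (-1.05 ± 0.17). OLA1, an ATPase of the Obg family, had 79.97 TPM in the first set and 166 TPM in the second (-1.08 ± 0.15), and CCNI, a cyclin-like gene, 161 TPM in the first set and 335 TPM in the second (-1.005 ± 0.13). RPL21P16, a processed copy of the ribosomal protein gene RPL21, had 534 TPM in the first set and 1225 TPM in the second (-1.65 ± 0.37). Its mean difference includes 1 cell of the first set at 0. Of the 96 genes lower in at least 90% of pairs, 62 were ribosomal protein genes, 7 were of the elongation list and 23 were other protein-coding genes. These 23 included GAPDH of glycolysis (medians 2012 TPM in the first set and 3164 TPM in the second) and HNRNPA1, a splicing factor (1543 TPM in the first set and 2522 TPM in the second).

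To show the starts of these mRNAs, 15 bases before and 15 bases from the annotated start on are printed from the RefSeq promoter table (GRCh38.p14), 5' to 3'. Capitals mark an unbroken run of at least 6 C or T, read from the first C found from 3 bases before the start on. C or T directly before that C, as in EEF1A1, OLA1 and CCNI, stay in lower case.
RPS3A, chr4:151099613-151099642, plus strand: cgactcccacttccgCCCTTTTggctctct
EEF1A1, chr6:73521018-73521047, minus strand: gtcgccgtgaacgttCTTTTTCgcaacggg
TPT1, chr13:45341169-45341198, minus strand: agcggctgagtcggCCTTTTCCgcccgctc
OLA1, chr2:174248518-174248547, minus strand: ctgcgttctctcCTCCTTCCTCCCCgcctc
CCNI, chr4:77075975-77076004, minus strand: ttcccctctcttCCCCTCCCTCCCCagcct
MYL12B, chr18:3262118-3262147, plus strand: ccgctccgccccttcaggcaggaagtgtcg
DSTN, chr20:17570060-17570089, plus strand: tcctgaggcgcgcccgccccggggtaagct

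By this rule the run was marked at the start of RPS3A, EEF1A1, TPT1, OLA1 and CCNI and not at the starts of MYL12B and DSTN. The MYL12B window does hold an unbroken stretch of C or T (ccccttc), which ends at the base before the annotated start. The rule did not mark this stretch, because reading began at its last C. The DSTN window holds no stretch of at least 6 C or T. Of the 92 protein-coding genes lower in at least 90% of pairs, 73 had an entry in the table, and 42 of these 73 (57.5%) held the run. It was held by 986 of 10133 expressed protein-coding genes (9.73%) and by 8.54% of all 27305 starts in the table. Of these 42, 30 were ribosomal protein genes, of which 71.4% of the 63 with an entry held the run whether or not they were lower in 90% of pairs. Outside that family it was held by 12 of 27 genes lower in at least 90% of pairs (44.4%) and by 941 of 10070 expressed genes (9.34%). These 27 still include genes of the elongation list, such as EEF1A1 and TPT1. In the third of highest level among the 10070 genes, 368 of 3357 held the run. Expressed genes outside the family that hold the run had a median difference of -0.17, and those without it -0.12. A run is a match of letters, not a measured tract.

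RNA classes, taken from the gene types of GENCODE release 44, differed in direction. Of the 17132 expressed genes 49.6% had a difference above 0. Of 3098 expressed lncRNA genes 74.6% did, with a median difference of 0.30, and of 12636 protein-coding genes 41.5% did, with a median of -0.13. With expressed genes cut by level into 3 parts of equal size, the lncRNA median was 0.28, 0.41 and 0.53 from low to high, and the protein-coding median 0.05, -0.19 and -0.16. Summed lncRNA took 35596, 56545 and 87197 TPM in cells of the first set (lowest, median, highest) and 33134, 47038 and 59391 TPM in cells of the second, so the ranges overlapped widely. lncRNA stayed above 0 and protein-coding genes below 0 when the mitochondrial genes were left out (0.36 and -0.04) and when the median gene of each cell was subtracted (0.24 and -0.20). Over all 12 settings tried, the lncRNA median ran from 0 to 0.42 and the protein-coding median from -0.26 to 0.

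Several other classes lay on the same side as lncRNA. Of 29 expressed snRNA genes 25 had a difference above 0, with a median of 0.83, but near-identical copies share reads and these genes held 12 distinct sets of values. RNU1-1, the U1 RNA of the spliceosome, had medians of 89.3 TPM in the first set and 49.7 TPM in the second (0.92 ± 0.18). Summed snoRNA had medians of 2582 TPM in the first set and 1089 TPM in the second, with 84.2% of pairs higher in the first set. Transcribed unprocessed pseudogenes, 307 of them, had a median difference of 0.39. Processed pseudogenes, which derive from mRNAs, had a median of -0.03, and its sign turned over the settings tried. The 19 expressed miRNA genes had a median of -0.82, which reached 0.19 under the setting where it was highest. The signal recognition particle gene RN7SL2 went the other way, with medians of 78.1 TPM in the first set and 260 TPM in the second, but was not counted (27.1% of pairs higher in the first set, and 12 cells of the first set and 5 of the second at 0).

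**Figure D3:**
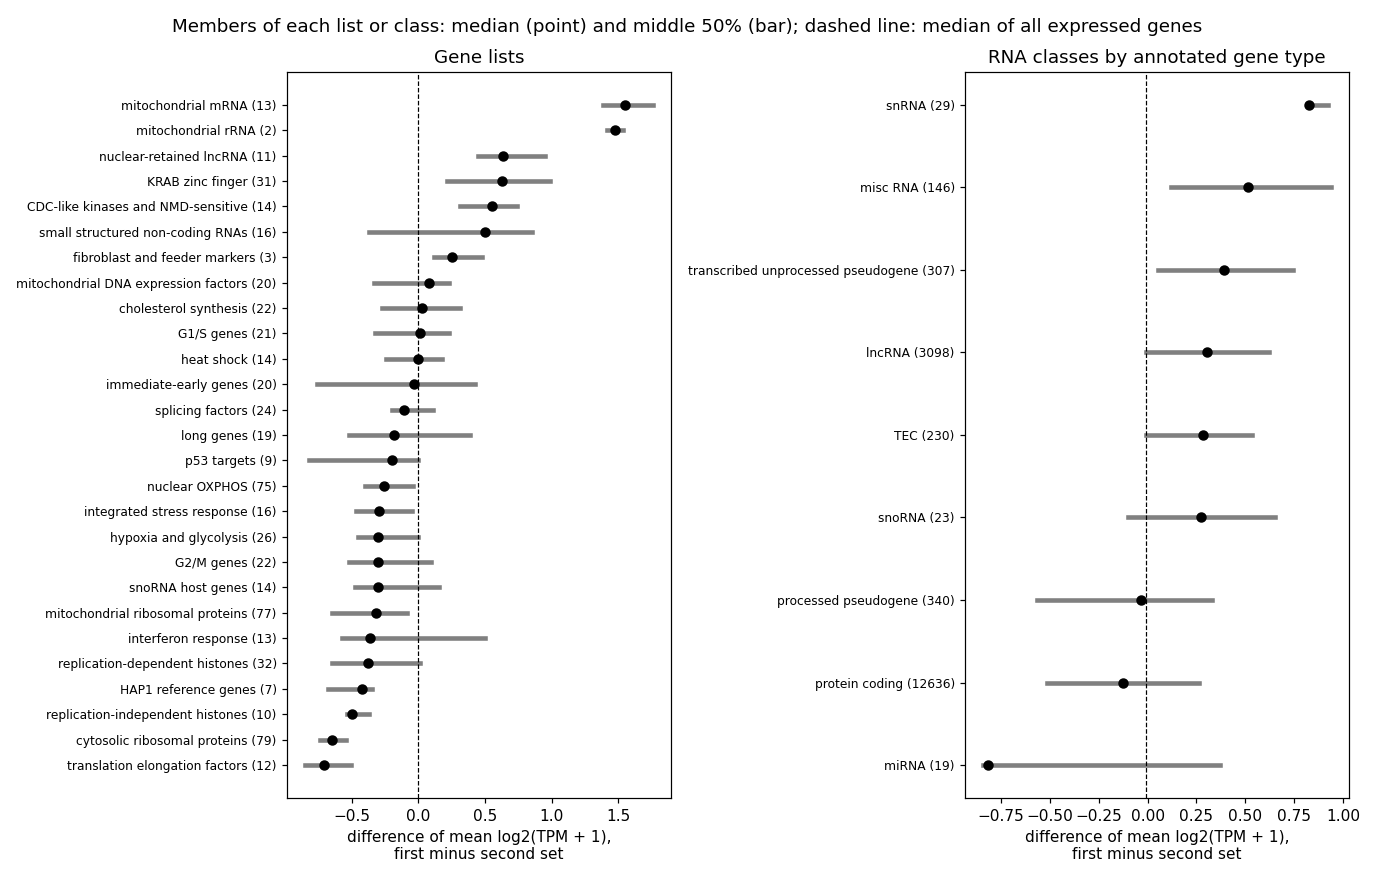
Difference of mean log2(TPM + 1), first minus second set (horizontal axis), for the expressed members of 27 gene lists (left) and 9 gene types (right), each with its number of members, the median as a point and the middle 50% of members as a bar. Mitochondrial mRNA (1.56) lay farthest to the right and the elongation list (-0.71) and ribosomal proteins (-0.65) farthest to the left of the lists.

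All 11 expressed genes of the list named nuclear-retained lncRNA had a higher mean in the first set, with a median of 0.64, though SNHG14 alone was counted. Expressed lncRNA genes as a whole leaned the same way, with 74.6% above 0 and a median of 0.53 in the third of highest level. The list also holds NORAD (0.35) and OIP5-AS1 (0.03), which are known from the cytoplasm, and TUG1 (0.64), which the annotation types as protein-coding. Where in the cell these RNAs were was not measured. MALAT1, a lncRNA of nuclear speckles, had 993, 3373 and 8152 TPM in the first set and 754, 1757 and 6585 TPM in the second (0.84 ± 0.19). NEAT1, which builds paraspeckles, had medians of 142 TPM in the first set and 76.8 TPM in the second, FTX 237 TPM in the first set and 104.3 TPM in the second, and KCNQ1OT1 2.17 TPM in the first set and 1.21 TPM in the second. Of the 14 genes of the list of CDC-like kinases and transcripts with retained introns or poison exons 13 had a difference above 0, with a median of 0.55. SRRM2, a speckle protein, had medians of 684 TPM in the first set and 411 TPM in the second (0.82 ± 0.12), MAT2A, the methionine adenosyltransferase with a regulated retained intron, 920 TPM in the first set and 490 TPM in the second (0.74 ± 0.13), and DDX17, an RNA helicase, 741 TPM in the first set and 467 TPM in the second (0.72 ± 0.12). Of 31 expressed KRAB zinc finger genes 27 had a difference above 0 (median 0.62), and their sum had medians of 487 TPM in the first set and 281 TPM in the second. The ranges of all these transcripts overlapped between the sets.

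Nuclear genes whose proteins work in mitochondria did not share the direction of the mitochondrial transcripts. Of 75 genes for nuclear-encoded subunits of the respiratory chain 60 had a lower mean in the first set (median -0.26), and of 77 mitochondrial ribosomal protein genes 62 did (median -0.32). Protein-coding genes as a whole leaned the same way, with 41.5% above 0 and a median of -0.13. Over the settings tried, mitochondrial genes left out among them, the list medians ran from -0.32 to -0.14 for the respiratory chain. For the mitochondrial ribosomal proteins they ran from -0.44 to -0.20. None of them was counted. NDUFA2 of complex I had medians of 53.9 TPM in the first set and 106.7 TPM in the second (-1.26 ± 0.29), with 1 cell of the first set at 0. COX6A1 of cytochrome c oxidase, the one of the 75 that was higher in at least 90% of pairs, had 988 TPM in the first set and 708 TPM in the second (0.53). MRPS25, of the small mitochondrial subunit, had 188 TPM in the first set and 76.9 TPM in the second (1.23 ± 0.20), with 89.8% of pairs higher in the first set. Factors of mitochondrial transcription and RNA decay had a median difference of 0.08, with 11 of 20 above 0.

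Cell-cycle lists were near the background or slightly below it. The median difference was 0.02 for 21 genes of the start of S-phase (12 above 0) and -0.30 for 22 genes of G2 and mitosis (6 above 0), and none was counted. CDT1, a licensing factor, had medians of 37.2 TPM in the first set and 70.7 TPM in the second (-0.99 ± 0.22), and CDK1, the mitotic kinase, 155 TPM in the first set and 253 TPM in the second (-0.74 ± 0.17). Members of both lists went the other way. CCNE2 of the first list had a difference of 0.54 ± 0.56. In the second list, ASPM had 0.65 ± 0.20 and UBE2C, with 9 cells of the first set and 10 of the second at 0, had 1.34 ± 0.66. Replication-dependent histones, whose mRNAs lack a poly(A) tail, had 32 of 62 genes expressed with a median of -0.38, and their sum was 75.3, 198 and 499 TPM in the first set and 53.1, 241 and 1796 TPM in the second. All 10 expressed replication-independent histone genes had a lower mean in the first set (median -0.50). The stress lists (heat shock, integrated stress response, immediate-early, p53, hypoxia and glycolysis, interferon) had medians between -0.36 for the interferon list and -0.0011 for heat shock, and none of their genes was counted.

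Unspliced RNA, the reads in gene bodies outside exons, is given as estimated counts that are not scaled to a common total. Per the methods, reads of each RNA library were downsampled to equal numbers. Whether the deposited unspliced table was made after that step was not tested. Totals of some cells of the first set, up to 1353931 counts in cell 18, were above the number of reads per cell given in the methods. Those of the second set, up to 712073 counts, were not. How this came about was not tested, so the part of read depth in a difference of totals is not known. The total was 557035, 812254 and 1353931 counts in the first set (lowest, median, highest) and 425181, 568578 and 712073 counts in the second, and 91.7% of pairs were higher in the first set. Over 12441 genes that passed the filter on low values, 59.4% had a difference of mean log2(count + 1) above 0, with a median of 0.13. Scaled to the unspliced total of the cell, the median was -0.16, so the direction over all genes turned with the scaling. The extra counts of the first set lay in expressed genes: genes below the spliced filter held a median of 132132 unspliced counts in the first set and 132897 in the second, a median of 16.5% of the total in the first set and 22.6% in the second. Genes grouped by length differed little, with medians of 0.10, 0.16 and 0.13 in the short, middle and long groups. So did genes grouped by the share of cells in which they had 2 copies, with medians of 0.10, 0.15 and 0.16 from the lowest share to the highest.

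Single unspliced genes went mostly the other way. 2 genes were counted as higher in the first set (0.0161%) and 25 as lower (0.201%). Of the genes counted as lower, LINC02067 had medians of 15.5 counts in the first set and 32.3 counts in the second (-1.27 ± 0.18). MAP3K13 had 132 counts in the first set and 251 counts in the second (-1.24 ± 0.27). For MAP3K13, 1 cell of the first set was at 0, which adds to the mean difference. CSF1R, the receptor of a macrophage growth factor, had 71.9 counts in the first set and 175 counts in the second (-1.17 ± 0.12). Of the 25 genes 14 (56%) overlapped another gene that is a ribosomal protein gene, a gene of the elongation list or a copy of one. Of all 12441 genes 620 did (4.98%). Of the 53 genes lower in at least 90% of pairs (0.426%), 28 did (52.8%).

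MAP3K13 spans RPL4P4, which was 98.4% identical to RPL4 mRNA over 1284 bases, CSF1R spans RPL7P1 (99.6% identical to RPL7), SMOC1 spans RPL7AP6 (98.5%) and LINC02613 spans RPLP0P6 (98.9% identical to RPLP0). Over the 11 genes that span a copy the identity was between 90.6% and 99.8%, and in 2 cases a pair of overlapping genes spans the same copy. The other 3 overlapped the expressed genes themselves: NKIRAS1 with RPL15 (medians 684 counts in the first set and 1463 counts in the second), CAND2 with RPL32 (568 counts in the first set and 1079 counts in the second) and RP11-983P16.4 with EIF4B (496 counts in the first set and 901 counts in the second). How the authors' counting placed reads that match several loci was not tested.

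Of the genes counted as higher in unspliced RNA, RP11-152D8.1, a lncRNA gene, had medians of 19.9 counts in the first set and 8.11 counts in the second (1.26 ± 0.18).

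Inside each set, the RNA measures that part the sets were set against each other from cell to cell. They come from the same RNA library of each cell, so the correlations are given as a description. In the first set the mitochondrial share and the unspliced total had Pearson's r = 0.80 and Spearman's rho = 0.78 across the 29 cells, and r = 0.76 without the 2 cells farthest from the median share. In the second set, across 27 cells, r was 0.09 and rho 0.12, and r was 0.02 without the 2 farthest cells. The ribosomal protein share of nuclear TPM was lower in cells of higher mitochondrial share, with r = -0.66, rho = -0.66 and r = -0.53 without the 2 farthest cells in the first set, and r = -0.53, rho = -0.41 and r = -0.47 in the second. The mitochondrial share ran from 4.98 to 18.3% in the first set and from 2.57 to 5.55% in the second, and a narrow range can lower r. The difference between the sets in these correlations was not tested.

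**Figure D4:**
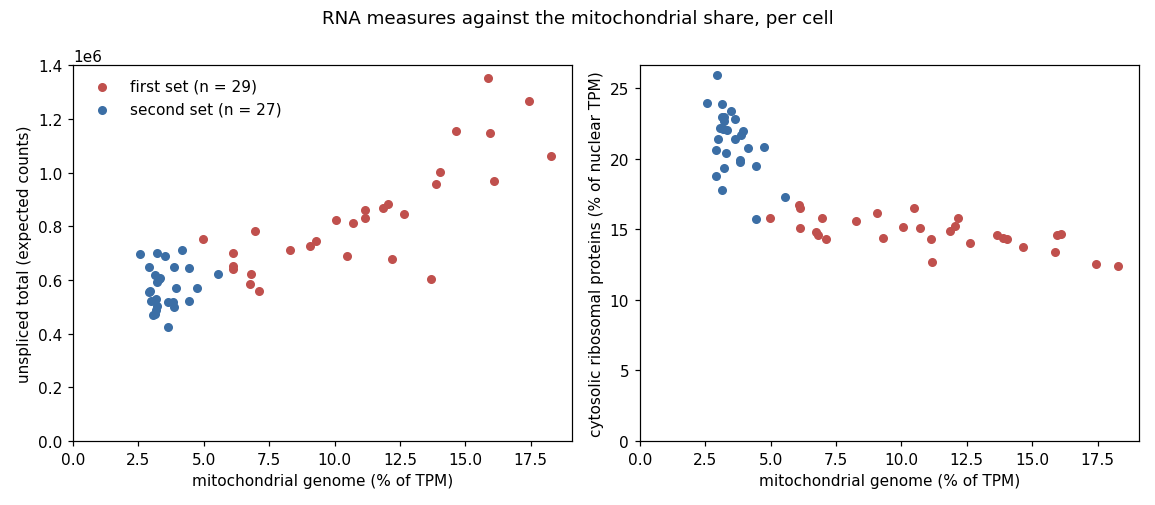
Unspliced total (left, vertical axis) and ribosomal protein share of nuclear TPM (right, vertical axis) against the share of TPM from the mitochondrial genome (horizontal axis), 1 point per cell, first and second set in separate colours. The unspliced total climbs with the mitochondrial share among the 29 cells of the first set (r = 0.80) and not among the 27 cells of the second (r = 0.09). The share spans 4.98 to 18.3% in the first set and only 2.57 to 5.55% in the second, and a narrow range can lower r.

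Unspliced totals and the ribosomal protein share had r = -0.61, rho = -0.54 and r = -0.49 without the 2 farthest cells in the first set, and r = -0.08, rho = -0.13 and r = -0.02 in the second. The replication score, the percent of called 40-kb bins with 2 copies, comes from the DNA library and was only weakly related to either RNA measure. Its r with the mitochondrial share was -0.25 in the first set (rho = -0.27) and 0.01 in the second (rho = -0.10), and with the unspliced total -0.07 in the first set (rho = -0.07) and 0.27 in the second (rho = 0.33). Without the 2 farthest cells these values of r were between -0.13 and 0.35.

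The DNA libraries of the same cells had no part in the choice of the sets. The replication score averaged 50.7 ± 7.75% in the first set and 56.4 ± 7.07% in the second (SD, 29 and 27 cells), a difference of -5.68 points (two-sided permutation test, p = 0.00702, adjusted 0.0105 over 3 DNA measures). Scores ran from 39.7 to 67.2% in the first set and from 43.4 to 67.2% in the second, so the ranges overlapped almost fully. Of 20 chromosomes 16 had a lower 2-copy share in the first set at an adjusted p under 0.05 (80% of those tested), for example chromosome 14, with 56.7 ± 9.14% in the first set and 64.4 ± 7.78% in the second (permutation test, adjusted p = 0.0111). With the score of each cell subtracted, none of the 20 passed (lowest adjusted p = 0.169, permutation test).

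No single bin set the sets apart. Of 56839 bins tested by Fisher's exact test none passed with Benjamini-Hochberg adjustment (0% called, lowest adjusted p = 0.333). At an unadjusted p under 0.05 there were 3259 of the 56839 bins, 3097 of them with a lower 2-copy share in the first set. Some bins pass this threshold without any difference, so the count is not read as a result about bins. The mean difference was -2.64 points in bins replicated in up to 20% of all cells, -8.83 in those at 20 to 40%, -11.7 at 40 to 60%, -10.8 at 60 to 80% and -3.18 in bins replicated in over 80%. Among the 13 cells of the first set and 11 of the second scored 50 to 60%, 577 of 56702 bins had an unadjusted p under 0.05. Of these, 352 had a lower and 225 a higher 2-copy share in the first set.

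The copy-state profiles of the first set were more broken up. Changes of state between neighbouring bins numbered 23.6 ± 3.95 per 1000 pairs in the first set and 20.1 ± 2.17 in the second, a difference of 3.41 (two-sided permutation test, p = 8.00e-05, adjusted 0.00024). Cells 24 and 51 of the first set were the highest, at 34.8 and 33.6. Cells of higher score had fewer changes, with r = -0.66, rho = -0.70 and r = -0.63 without the 2 farthest cells across the 29 cells of the first set, and r = -0.39, rho = -0.37 and r = -0.34 across the 27 cells of the second. With the score taken into account the difference between the sets was 2.03 (permutation p = 0.00496), and among the 13 cells of the first set and 11 of the second scored 50 to 60% it was 1.78 (permutation p = 0.0837). Runs of a single bin were rare in both sets, with a median of 0.253 per 1000 bins in the first set and 0.251 in the second. The share of bins without a call averaged 0.561 ± 0.203% in the first set and 0.668 ± 0.545% in the second (permutation p = 0.442). Cell 91 of the second set had the highest, 3.34%, and without it the difference was -0.0042 points (permutation p = 0.94).

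**Figure D5:**
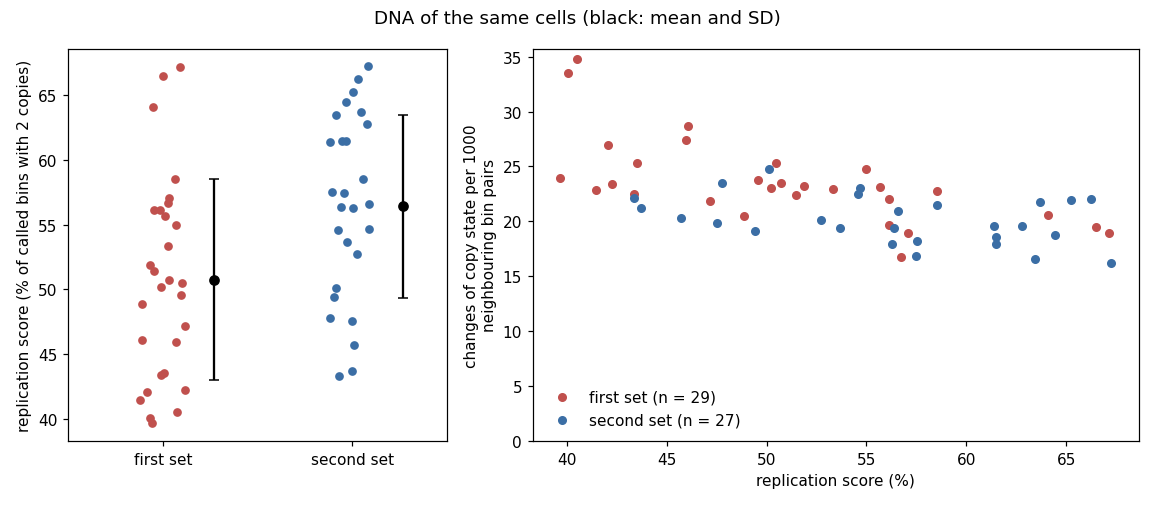
Replication score of each cell by set (left, with mean and SD in black) and changes of copy state per 1000 neighbouring bin pairs against the replication score (right), 1 point per cell. Scores averaged 50.7% in the first set and 56.4% in the second, and all cells with more than 25 changes per 1000 belong to the first set.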

How the data were processed

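Values were analysed as deposited. Per the methods, the authors aligned DNA reads to hg38 with BWA (0.7.17-r1188 in the submitters' processing notes), called copy states in 40-kb bins with AneuFinder and left out chromosomes 1, 15 and X. The deposited copy states are coded numbers (scores) for 2 copies, 1 copy and no call. RNA was counted by the authors with ramdaq (Hisat2, featureCounts, GENCODE) and deposited as TPM. The deposited spliced TPM equalled gene TPM for all 45404 genes, and gene TPM were used. The deposited unspliced values are the authors' expected counts, gene body less exons with negatives set to 0; the methods state a reduction of RNA libraries to a common number of reads. TPM keep no depth, so intervals from counts were not computed.

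Genes with at least 1 TPM or count in a minimum of 20% of the 56 cells were kept. Differences are of mean log2(value + 1), first minus second set, with SEs over cells, and understate those of low genes. RNA between sets was not tested. DNA measures were compared by permutation (100000), bins by Fisher's exact test, with Benjamini-Hochberg adjustment. Correlations across cells are given without p-values. Cells come from 1 experiment and each set is a single group. The p-values therefore set a difference against the spread between cells and do not cover replicate experiments or sets. Members and gene lists were chosen with earlier results of these data known. Named genes were the 15 largest differences each way among counted genes (10 for unspliced), list members and markers. The values of COX6A1, start runs and overlapping copies were chosen after values were seen. Gene types (GENCODE 44) were missing for 50 expressed genes. Alternatives changed pseudocount, filter, scaling, cells and share of pairs. Scripts (Python 3.11.15, numpy 2.4.6, scipy 1.17.1) were tested on simulated data. A gene counted in unspliced RNA is not reported here.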

Additional observations from a re-analysis of the deposited data

How the results depend on the processing

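The number of genes counted as higher in spliced RNA (26, or 0.152% of 17132) stayed within 1.5 times under 10 of 12 alternatives. With no filter on low values the numbers counted stayed 26 and 7 in spliced and 2 and 25 in unspliced RNA, of more genes compared (0.0723%, 0.0195%, 0.00827% and 0.103%). The share counted as higher was 0.636% in the 13 cells of the first set and 11 of the second scored 50 to 60% (23 of the 26 genes and 86 others) and 0.0759% with 95% of pairs. The share counted as lower (0.0409%, 7 genes) was 0.0233% with a pseudocount of 10 and again without the 3 cells on each side of the parting (4 genes each), 0.00584% with the mitochondrial genes left out and the rest rescaled (1 gene), 0.128% in cells scored 50 to 60%, 0.0117% with 95% of pairs and 0.56% with no minimum difference, an alternative chosen after seeing the data. With the mitochondrial genes left out, 26 genes were counted as higher, 11 of which had been before. Unspliced genes counted as higher (0.0161%, 2 genes) were 0% when scaled to the unspliced total, 0.00804% (1 gene) with a pseudocount of 10, with the replication score as a term and with 95% of pairs, and 0.169% in cells scored 50 to 60%. Those counted as lower (0.201%, 25 genes) were 0.924% when scaled to the unspliced total (the 25 and 90 others), 0.0563% with a pseudocount of 10, 0.113% with 95% of pairs and 0.426% with no minimum difference. The median of all spliced genes was -0.12 with a pseudocount of 0.1, against -0.01. The cause of these changes was not tested. Of 193 named gene values 32 changed side under an alternative and 0 reversed. The median of the ribosomal protein genes stayed between -0.72 and -0.53, and that of mitochondrial mRNA between 1.49 and 1.69.

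The score difference kept its side of the threshold under 3 alternatives. The changes of copy state did so with the score taken into account but not in cells scored 50 to 60% (1.78, permutation p = 0.0837), and the number of chromosomes past the threshold was 0 with the score subtracted. No paired analysis was possible because the sets share no cell numbers. The values come from single-cell libraries of a single experiment, and levels near 1 TPM are imprecise.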
